A study of Mus musculus with 4 samples.

Results

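The genes described here are the receptors and ligands of platelet-derived growth factor (PDGF), 7 of the 56980 genes listed for sorted bone marrow mesenchymal stroma cells (MSCs). They were chosen by symbol, and each symbol matched 1 gene. Pdgfra and Pdgfrb encode the receptor tyrosine kinases, Pdgfrl encodes a receptor-like protein without a kinase domain, and Pdgfa, Pdgfb, Pdgfc and Pdgfd encode the ligand chains. All 4 libraries belong to 1 group, wild-type male C57BL/6J mice from an in-house inbred colony aged 14 weeks, and each library was made from the bone marrow of 1 mouse. The sort took 100 cells per mouse that carried CD51 and PDGFRa and lacked CD45, Ter119, CD31 and Sca1, and their polyadenylated RNA was reverse transcribed into full-length cDNA, amplified and tagmented. The PDGFRa protein was thus a gate of the sort, and the presence of Pdgfra in these cells is in part set by that gate. There is no other group to compare with, so the comparisons are between genes within each mouse, and macrophage libraries were not analysed here.

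PDGF chains are secreted as disulfide-linked dimers, and a dimer joins a pair of receptor chains, which then phosphorylate each other and recruit adaptors and enzymes with SH2 domains. The PDGFRa chain binds the A, B and C chains, whereas the PDGFRb chain binds the B and D chains. In bone marrow and other tissues both receptors are known from stromal and perivascular cells, and PDGF-B from endothelium recruits pericytes, the mural cells of small vessels, through PDGFRb. The A and B chains are cut by proprotein convertases before secretion, whereas the C and D chains leave the cell as latent forms whose CUB domain must be removed by an extracellular protease.

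To show the regulatory sequence beside the levels, the 250 bases before the RefSeq transcription start are given for Pdgfra, the gene of the sort gate, and for Pdgfa and Pdgfd, the ligands with the highest mean levels. The sequences come from RefSeq on GRCm38.p6 and are written 5′ to 3′ on the strand of the gene. Capitals mark matches, on either strand, to the TATA box, spelled TATAAA, or to the GC box, spelled GGGCGG and on the other strand CCGCCC, and the CCAAT box was searched as well. The windows lie at chr5:75152001-75152250 on the plus strand for Pdgfra, chr5:138994945-138995194 on the minus strand for Pdgfa and chr9:6168236-6168485 on the plus strand for Pdgfd.
Pdgfra: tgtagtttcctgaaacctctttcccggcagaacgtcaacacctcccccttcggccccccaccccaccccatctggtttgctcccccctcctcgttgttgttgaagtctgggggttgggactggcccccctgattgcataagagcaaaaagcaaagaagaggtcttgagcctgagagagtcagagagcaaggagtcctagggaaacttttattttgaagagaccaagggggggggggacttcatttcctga
Pdgfa: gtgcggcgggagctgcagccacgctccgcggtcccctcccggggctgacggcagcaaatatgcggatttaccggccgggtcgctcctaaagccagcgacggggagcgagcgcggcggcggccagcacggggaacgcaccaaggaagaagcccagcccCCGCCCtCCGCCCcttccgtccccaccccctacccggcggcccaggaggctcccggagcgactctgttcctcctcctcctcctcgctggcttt
Pdgfd: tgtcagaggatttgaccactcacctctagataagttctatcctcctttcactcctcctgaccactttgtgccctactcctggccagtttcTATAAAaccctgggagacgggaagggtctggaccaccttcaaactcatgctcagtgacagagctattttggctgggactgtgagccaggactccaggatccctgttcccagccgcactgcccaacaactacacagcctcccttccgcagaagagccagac
The Pdgfa window is rich in G and C, at 72.4%, and has an observed to expected CpG ratio of 0.871. It holds 2 GC boxes in the antisense direction, which begin 93 and 86 bases before the start. The Pdgfra window has 54.4% G and C, a CpG ratio of 0.216 and none of the 3 motifs. The Pdgfd window has 53.6% G and C and a CpG ratio of 0.176, with 1 TATA box 160 bases before the start, and no GENCODE start lies within 50 bases of the RefSeq start. The window of Pdgfc resembles those of Pdgfra and Pdgfd in composition, with 50.8% G and C, a CpG ratio of 0.187 and no match. Among all 32851 windows of this length, 12.4% hold TATAAA, 32.7% GGGCGG and 33.8% CCAAT, and the median window has 52.4% G and C and a CpG ratio of 0.373. These matches describe letters and not bound sites. Windows of 4 of the 7 genes were used, and another RefSeq start of Pdgfa has a window with 66.4% G and C and 1 GC box. No window was at hand for Pdgfrl and Pdgfb, and a window of Pdgfrb is not reported here.

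The libraries held between 22738604 and 43545349 counts on genes, and between 16109 and 18907 genes had at least 1 count. Levels are given as TPM, a unit in which a count is divided by the merged exon length of its gene before each library is scaled to 1000000. The smallest level taken as detectable was 3 counts, which limits counting error only, since copies of 1 cDNA made by PCR are not independent molecules. Of the sort antigens, Itgav (CD51) was present in every mouse, at 12.9 to 18.1 TPM, whereas Pecam1 (CD31) had at most 14 counts and Ptprc (CD45) at most 50 counts in any mouse. Ly6a, the gene of Sca1, had 1, 120, 0 and 144 counts in mice 1, 2, 3 and 4. The markers of Sca1-positive fibroblasts summed to between 0.0562 and 11.6 TPM, those of neutrophils to between 4.09 and 30.7 TPM and those of macrophages to between 0 and 16.0 TPM. All 6 niche stromal markers, Cxcl12, Lepr, Kitl, Prrx1, Foxc1 and Ebf3, were above 1 TPM in each of the mice. The share of protein-coding genes above 1 TPM in every mouse was 30.1%. Ebf3 had 1.03 TPM in mouse 1 and 27.3 TPM in mouse 2. Osteoblast genes were far higher, with a sum of Bglap, Ibsp, Sp7 and Alpl between 77792 and 168024 TPM, mostly from Bglap, which has near-identical gene copies.

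Of the 7 PDGF genes, 6 had a median above 1 TPM over the 4 mice, the cutoff that the study uses for expression, and the same 6 were above 1 TPM in each mouse. Over all 52125 genes with a length, 22.9% had a median above 1 TPM and 15.4% were above it in every mouse. Among protein-coding genes the shares were 44.2% and 30.1%. By mean level the order was Pdgfrl, Pdgfa, Pdgfd, Pdgfrb, Pdgfra, Pdgfc and Pdgfb. The first 5 of these were not separated from their neighbours, since each step between neighbours was smaller than its SD between mice, such as 0.02 ± 0.41 in log2(TPM + 1) from Pdgfrl to Pdgfa and 0.25 ± 0.42 from Pdgfa to Pdgfd (mean ± SD, n = 4 mice). Pdgfra was above Pdgfc in 4 of 4 mice, by 0.91 ± 0.43 in log2(TPM + 1). Pdgfb was the lowest of the 7 in every mouse. Other lengths and sets of mice changed the order of the others. Without a length correction Pdgfra was first and Pdgfrb next, with coding exons Pdgfa was first and Pdgfc was above Pdgfrb, and Pdgfa was also first without mouse 1 or without mouse 2. Pdgfra was above Pdgfrb in mean level with the longest transcript, and without mouse 2 or mouse 3.

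**Figure D1:**
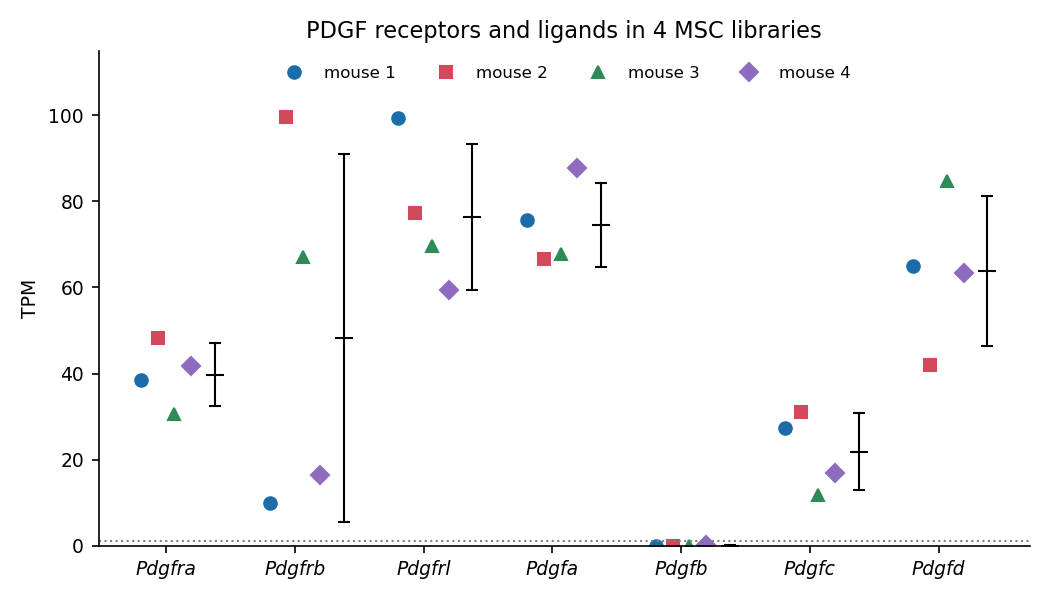
TPM of the 7 PDGF genes in the 4 MSC libraries, 1 point per mouse, with the mean and SD as a bar beside the points; the dotted line is the cutoff of 1 TPM. The points of Pdgfrb reach from 9.85 to 99.6 TPM, those of Pdgfa from 66.5 to 87.7 TPM, and all 4 points of Pdgfb lie on or next to the axis.

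The alpha receptor was similar between mice. Pdgfra (ENSMUSG00000029231) spans chromosome 5 from 75152292 to 75198215 on the plus strand of GRCm38, with 23 exons in its longest transcript. It had 6779, 5380, 5317 and 4315 counts in mice 1, 2, 3 and 4, or 38.4, 48.2, 30.7 and 41.7 TPM, and its mean was 39.8 ± 7.29 TPM (SD, n = 4). The highest mouse was 1.57 times the lowest, and 95.9% of all genes given a length had a lower median. A stretch of 4.55% of its exonic bases lies opposite Gm42802, which had no counts, and another 1.66% lies opposite Gm42803, which had at most 23 counts. The counting options that the study gives include no strand option.

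The beta receptor varied more between mice. Pdgfrb (ENSMUSG00000024620), on the plus strand of chromosome 18 from 61045150 to 61085061, had 949, 6071, 6357 and 924 counts, or 9.85, 99.6, 67.2 and 16.3 TPM in mice 1, 2, 3 and 4. Mouse 2 was highest, followed by mouse 3, with mice 4 and 1 well below both, and the highest mouse was 10.1 times the lowest. The coefficient of variation over the mice was 88.7%. In the column headings the library numbers of mice 1 and 3 lie close to each other, as do those of mice 2 and 4. Pdgfrb differed 6.82-fold within the former pair and 6.10-fold within the latter. Some other genes reported here split by these pairs. In mice 1, 2, 3 and 4, Kit had 0, 207, 0 and 133 counts and Rgs5 had 0, 1470, 0 and 138. Ly6a had 1, 120, 0 and 144 counts, and Plat, in the other direction, had 29, 0, 135 and 0. The part of the library pairs in any level was not tested. The exons of Pdgfrb overlap no other annotated gene. In these bulk samples, fewer cells with a transcript, less transcript per cell and uneven recovery of RNA from 100 cells cannot be told apart. Other genes fell to a few counts in 1 library. The kinase gene Map2k1 had 4330, 8, 2164 and 613 counts in mice 1, 2, 3 and 4, and Stat5b had 1, 794, 444 and 258.

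Which receptor kinase was higher depended on the mouse. Pdgfra was 3.90 and 2.55 times Pdgfrb in mice 1 and 4, and 0.484 and 0.457 times Pdgfrb in mice 2 and 3. The difference in log2(TPM + 1) was 1.86, -1.03, -1.10 and 1.30 in mice 1, 2, 3 and 4, with a mean of 0.26 ± 1.55 (SD), smaller than the spread between mice. An exact permutation test that flips the signs of the mice (two-sided) gave p = 0.75, and 0.75 after Benjamini-Hochberg adjustment over the 5 differences tested in these libraries. With 4 mice this exact test cannot give a p below 0.125. The mean of the difference turned to -0.28 without mouse 1 and to -0.09 without mouse 4, and was 0.69 without mouse 2 and 0.71 without mouse 3. It was 0.77 with the length of the longest transcript, 1.05 with coding exons alone and 1.14 without a length correction, each with Pdgfra higher in 2 of 4 mice.

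**Figure D2:**
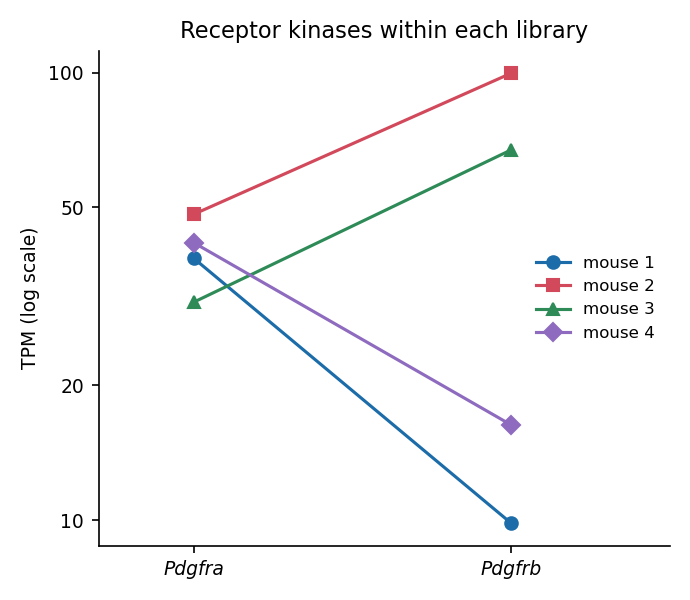
TPM of Pdgfra and Pdgfrb on a log axis, with a line joining both genes of each mouse. The lines of mice 2 and 3 rise from Pdgfra to Pdgfrb and those of mice 1 and 4 fall, whereas Pdgfra itself stays between 30.7 and 48.2 TPM.

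Pdgfrl was the receptor-family gene with the highest mean. Its protein has immunoglobulin-like domains related to those of the receptors. Pdgfrl (ENSMUSG00000031595), which runs from 40926212 to 40990785 on the plus strand of chromosome 8, had 5467, 2688, 3763 and 1919 counts, or 99.4, 77.3, 69.7 and 59.4 TPM in mice 1, 2, 3 and 4, a mean of 76.4 ± 17.0 TPM (SD, n = 4). It was above Pdgfra in 4 of 4 mice. The difference of Pdgfra from Pdgfrl was -0.92 ± 0.40 in log2(TPM + 1), larger than its spread between mice, with the smallest p that 4 mice allow (exact permutation p = 0.125, adjusted p = 0.3125). This direction rests on gene length. Pdgfra has 10024 exonic bases against 3126 for Pdgfrl, and without a length correction Pdgfra was the higher one, by 0.74.

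Of the niche stromal markers, Cxcl12 and Kitl had the same order of mice as Pdgfrb and the other 4 did not. How many of all genes have this order was not counted. The list summed to 1067, 4644, 2387 and 1243 TPM in mice 1, 2, 3 and 4, most of it Cxcl12, the chemokine that retains blood stem cells in the niche, which had 983, 4329, 2224 and 1079 TPM. Kitl, the ligand of the receptor Kit, had 14.9, 112, 73.4 and 48.4 TPM. Lepr, Foxc1 and Ebf3 were highest in mouse 2 but higher in mouse 4 than in mouse 3, with Lepr, the leptin receptor gene, at 31.9, 120.2, 44.5 and 64.8 TPM. Prrx1, a homeobox gene of mesenchyme, was lowest in mouse 2, at 10.6 TPM, and highest in mouse 1, at 19.4 TPM. The pericyte and smooth muscle markers, of which 4 of 8 had a median above 1 TPM and 1 was above it in every mouse, summed to 8.65, 32.0, 19.8 and 25.4 TPM. The share above the cutoff is close to the 44.2% of protein-coding genes. In mouse 2 the sum was mostly Rgs5, a pericyte gene, which had 0, 1470, 0 and 138 counts. Cspg4, Abcc9 and Notch3 were lowest in mouse 2, at 0.558, 2.27 and 0.0778 TPM, and Acta2 and Mcam had 0 counts in every mouse. The erythroid markers Hbb-bs, Hba-a1 and Alas2 summed to 3725, 21.1, 1298 and 270.0 TPM and were lowest in mouse 2 and next to highest in mouse 3. The part of these markers in the level of Pdgfrb was not tested.

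Patterns most like those of the receptors were sought by the root mean square distance between centred log2(TPM + 1) values over the 4 mice, among 11942 other genes with a median above 1 TPM. For Pdgfrb the nearest genes were Apobec1, a cytidine deaminase, at a distance of 0.16, Fhl2, which encodes a LIM domain protein, at 0.18, and the protocadherin gene Pcdhb17 at 0.18. Apobec1 had 11.1, 82.1, 59.3 and 15.8 TPM in mice 1, 2, 3 and 4, and Fhl2 had 23.7, 162, 135 and 33.9 TPM. Pcdhb17 had 0, 8.82, 3.76 and 0.540 TPM, so its distance rests in part on the 1 added to each TPM. Only 13 genes lay within 0.25 of Pdgfrb, and the median distance of all genes was 1.43. For Pdgfra the nearest were Rps15a-ps6, a processed pseudogene, Cdc40, a splicing factor gene, and Erbin, at 0.02 each, and 936 genes lay within 0.25. A gene with little spread between mice has many near neighbours, and 4 mice are too few for a correlation.

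Among the ligands, Pdgfa was the most even. Pdgfa (ENSMUSG00000025856), which runs from 138976014 to 138997370 on the minus strand of chromosome 5, had 4158, 2308, 3648 and 2826 counts, or 75.8, 66.5, 67.7 and 87.7 TPM in mice 1, 2, 3 and 4. Its mean was 74.4 ± 9.75 TPM (SD, n = 4), and the highest mouse was 1.32 times the lowest. Of its exonic bases, 26.1% lie opposite the antisense gene 6330403L08Rik, which had between 9 and 120 counts. Since no option for reads on 2 genes is given, these counts do not bound the reads that Pdgfa may have lost. Its level may be too low, which was not tested. Pdgfd (ENSMUSG00000032006; plus strand of chromosome 9, bases 6168584 to 6378850), whose product is the latent ligand of PDGFRb, had 3612, 1475, 4620 and 2067 counts. Its levels were 65.1, 42.0, 84.8 and 63.4 TPM, with a mean of 63.8 ± 17.5 TPM, and mice 2 and 3 were its lowest and highest.

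Pdgfc and Pdgfb were lower. Pdgfc (ENSMUSG00000028019; plus strand of chromosome 3, bases 81036416 to 81214040), whose product is the latent ligand of PDGFRa, had 2448, 1762, 1032 and 894 counts, or 27.3, 31.1, 11.7 and 17.0 TPM in mice 1, 2, 3 and 4, a mean of 21.8 ± 8.98 TPM (SD, n = 4). A near-identical copy in 1 other gene covers 4.20% of its longest transcript. Pdgfb (ENSMUSG00000000489), which runs from 79995874 to 80014977 on the minus strand of chromosome 15, had 1, 0, 0 and 6 counts. A count of 3 corresponds to between 0.0410 and 0.0698 TPM for Pdgfb, so that it was under the detection floor in mice 1, 2 and 3 and at 0.140 TPM in mouse 4. In other cells Pdgfb is known from endothelium and megakaryocytes. The endothelial markers summed to between 0.0465 and 1.28 TPM, with Cdh5 and Tie1 at 0 counts. Most of the higher sums came from Tek, which had 0, 58, 0 and 42 counts in mice 1, 2, 3 and 4. The megakaryocyte and platelet markers summed to between 0 and 7.95 TPM, with Itga2b at 0 counts.

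Set against each other within a mouse, Pdgfa was above Pdgfc in 4 of 4 mice, by 2.77, 2.14, 5.77 and 5.16 times in TPM. The difference in log2(TPM + 1) was 1.81 ± 0.66 (SD), larger than its spread (exact permutation p = 0.125, adjusted p = 0.3125). The chains that bind PDGFRa alone, Pdgfa and Pdgfc, summed to 96.2 ± 11.6 TPM, and the chains that bind PDGFRb, Pdgfb and Pdgfd, to 63.9 ± 17.5 TPM, nearly all of it Pdgfd. The former sum was higher in 3 of 4 mice, with mouse 3 the exception at 79.4 against 84.8 TPM. On the log2(TPM + 1) scale the mean difference was 0.62 ± 0.53 (SD), with p = 0.25 in the exact permutation test and 0.3125 after adjustment. It was 1.18 with the length of the longest transcript and 1.38 with coding exons alone, and then the former sum was higher in 4 of 4 mice.

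In each library the transcripts of ligands and of their receptors were both present. The 4 ligand genes summed to 168.2, 139.7, 164.2 and 168.2 TPM in mice 1, 2, 3 and 4, and the 2 receptor kinases to 48.3, 148, 97.9 and 58.0 TPM. Pdgfa made up 46.5 ± 4.57% of the ligand sum (SD, n = 4), Pdgfd 39.5 ± 8.93% and Pdgfc 13.9 ± 6.73%. The share of Pdgfc was highest in mouse 2, at 22.3%, and lowest in mouse 3, at 7.15%, where Pdgfd reached 51.6%. The ligand sum was above the receptor sum in mice 1, 3 and 4, and in mouse 2 the receptors were 1.06 times the ligands. The receptors minus the ligands gave -0.99 ± 0.84 in log2(TPM + 1), larger than its spread, with p = 0.25 in the exact permutation test and 0.3125 after adjustment. It was -1.77 with coding exons alone and 0.21 without a length correction, so its direction also rests on gene length.

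**Figure D3:**
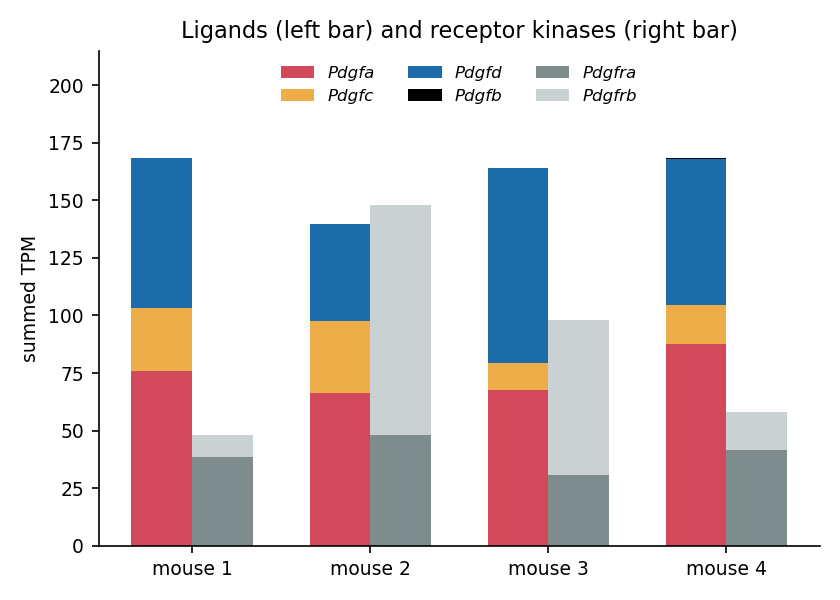
Summed TPM of the ligand genes in the left bar and of the receptor kinase genes in the right bar of each mouse, stacked by gene. The left bars lie between 139.7 and 168.2 TPM, and the right bars move from 48.3 to 148 TPM mostly through Pdgfrb.

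The spread between mice set Pdgfrb apart from the other members above the cutoff. Pdgfb, whose coefficient of variation of 177% rests on 1, 0, 0 and 6 counts, is left out here. Among the 4673 genes with a mean from 10 to 100 TPM the median coefficient of variation was 42.4%, with quartiles at 27.2% and 65.1%. Pdgfa, at 13.1%, had a lower spread than most, since 5.56% of these genes were lower still, and for Pdgfra, at 18.3%, the share was 11.7%. Pdgfrl had a coefficient of 22.2%, Pdgfd of 27.4% and Pdgfc, at 41.2%, lay near the median. For Pdgfrb 88.9% of these genes had a lower value. These coefficients depend on how the libraries are scaled. With DESeq2 size factors the SD was 14.7 TPM for Pdgfa and 9.88 TPM for Pdgfra, at means of 74.8 and 40.1 TPM. It was 16.7 TPM for Pdgfrl and 13.7 TPM for Pdgfd, at means of 76.2 and 63.0 TPM.

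**Figure D4:**
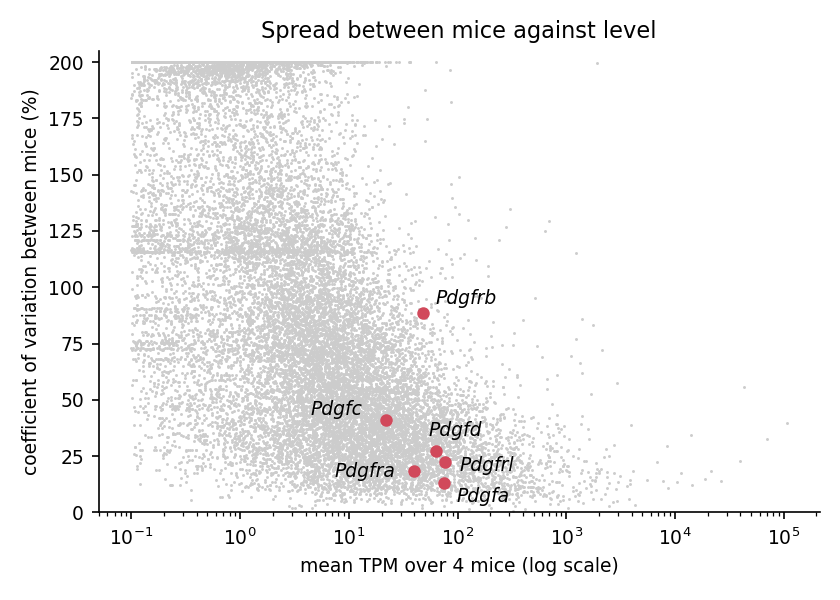
Coefficient of variation between the 4 mice in percent against the mean TPM on a log axis, with each gene above 0.1 TPM as a grey point and 6 PDGF genes in red. Pdgfrb lies at 88.7%, above the other 5, which lie between 13.1% and 41.2%.

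Ligands of this family need to be cut, and each listed convertase gene was above each listed extracellular protease gene in every mouse. Of the 7 listed processing genes, 4 had a median above 1 TPM and 3 were above it in every mouse, where 44.2% and 30.1% of protein-coding genes were. Pcsk6, a proprotein convertase, had 57.2, 57.2, 74.0 and 70.9 TPM in mice 1, 2, 3 and 4. Its relatives Pcsk5, with 9.87 to 34.6 TPM, and Furin, with 2.57 to 7.23 TPM, were also above 1 TPM in every mouse, whereas Pcsk7 had 0.754 TPM in mouse 1 and 8.68 to 17.1 TPM in the others. Plat, which encodes tissue plasminogen activator, an activator of latent PDGF-C, had 29, 0, 135 and 0 counts. In mouse 3 it was above the cutoff, at 1.25 TPM. Of the activators of latent PDGF-D, Plau (urokinase) had at most 1 count in any mouse and St14 (matriptase) had 0 counts in all. Proteases from other cells of the marrow are outside these libraries.

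The relatives of the PDGF receptors were near or at 0. Kit and Kdr are the next coding genes after Pdgfra on chromosome 5, with gaps of 376.7 kb from Pdgfra to Kit and 276.1 kb from Kit to Kdr, and Csf1r lies 15.5 kb from Pdgfrb on chromosome 18. None of the 6 listed class III and class V receptor kinases had a median above 1 TPM, where 44.2% of protein-coding genes did. Csf1r, Flt3, Kdr, Flt1 and Flt4, the receptors of macrophage, haematopoietic and endothelial growth factors, had 0 counts in every mouse. Kit, the stem cell factor receptor, had 0, 207, 0 and 133 counts, or 2.09 TPM in mouse 2 and 1.44 TPM in mouse 4.

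**Figure D5:**
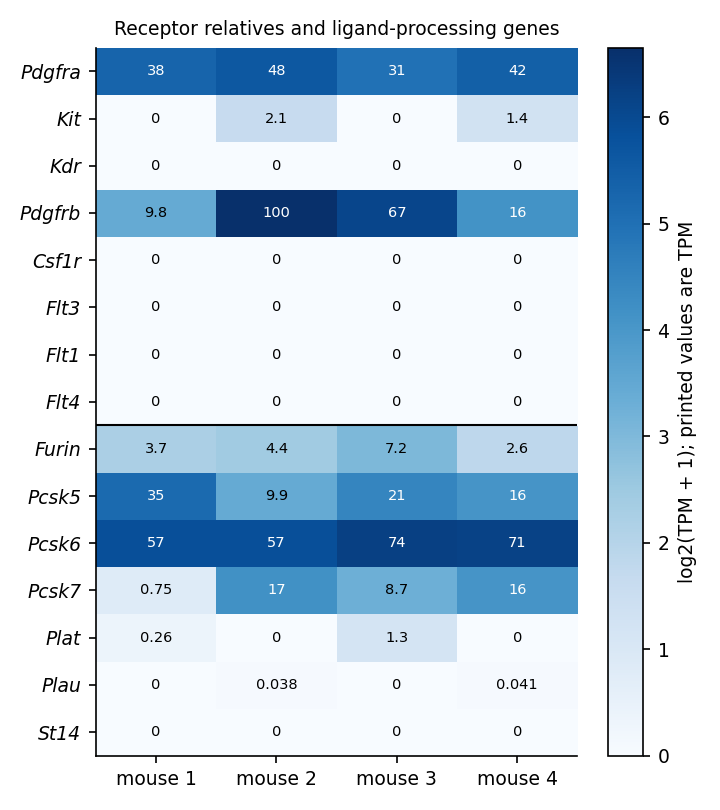
Level of the receptor relatives (upper rows) and of the ligand-processing genes (lower rows) in each mouse, with the colour on the scale of log2(TPM + 1) and the printed values in TPM. Pdgfra and Pdgfrb are the only coloured receptor rows apart from Kit in mice 2 and 4, and Pcsk6 is the darkest of the lower rows.

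Genes that bind the ligands or act with the receptors were mostly present. Of 6 co-receptors and binders 5 were above 1 TPM in every mouse, as were 30.1% of protein-coding genes. Sparc, a matrix protein that binds the B chain, had between 35001 and 53457 TPM, and Nrp2, a neuropilin, had 166, 101, 113 and 89.9 TPM. A2m, a plasma protease inhibitor that binds the B chain, was the lowest, with 777 counts in mouse 3 and at most 7 in any other.

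Signal transduction genes were mostly above the cutoff. Of 23 receptor-proximal genes, 21 had a median above 1 TPM and 15 were above it in every mouse, where 44.2% and 30.1% of protein-coding genes were. The highest medians were those of Fyn, a Src family kinase, at 35.1 TPM, and of the adaptor gene Shc1, at 26.5 TPM, and Pik3cb, a catalytic subunit of PI 3-kinase, had 0 counts in every mouse. Of the 10 downstream kinases and GTPases all had a median above 1 TPM and 9 were above it in every mouse. They were led by Map2k2 at 61.0 TPM and Akt1 at 37.0 TPM, with Hras lowest at 4.87 TPM. All 7 negative regulators had a median above the cutoff and 5 were above it in every mouse. They were led by the phosphatase genes Acp1 at 48.4 TPM and Ptpn2 at 43.9 TPM. Ptprj, a receptor-type phosphatase, was lowest at 1.54 TPM.

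All 4 growth-factor response genes were above 1 TPM in every mouse. Fos, an immediate-early gene, had 1104, 1897, 2216 and 1258 TPM in mice 1, 2, 3 and 4, and Egr1 had 178, 379.6, 434 and 174 TPM. Mice 2 and 3 were the highest for both genes, as they were for Pdgfrb, and how many of all genes share this was not counted. Ccnd1, a cyclin gene, was the lowest of the 4, at 2.22, 4.14, 15.2 and 20.6 TPM. These genes respond to many stimuli, tissue dissociation among them, and the part of the sort in their levels was not tested. Over the 6 pathway lists together, 51 of 57 genes had a median above 1 TPM and 41 were above it in every mouse, to be read against the same 44.2% and 30.1%. The median of their medians was 12.2 TPM, against 8.35 TPM over all genes above the cutoff and 0 TPM over all genes with a length.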

How the data were processed

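RNA of 100 sorted MSCs from each of 4 mice was sequenced. The authors mapped the reads to GRCm39 with STAR (version 2.7.10 in the submitters' processing notes), counted them per gene on exons with featureCounts of Subread 1.6.5, and deposited raw counts without normalization. The main Methods list a figure panel on MSCs under another pipeline. The description specific to MSC libraries was followed, whose aligner and counter the submitters' processing notes also name.

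Counts were converted to TPM with merged exon lengths from GENCODE M21 on GRCm38, joined by Ensembl identifier. Because this is an earlier build than that of the counts, the TPM of a gene with altered exons is wrong in proportion to its length. Of the listed genes, 4855 have no length and were left out, and the remaining genes hold between 96.1% and 98.2% of a library's counts. A gene counted as expressed at a median above 1 TPM. Comparisons used differences in log2(TPM + 1) within a mouse and an exact permutation test over the signs of the 4 mice, with adjustment over 5 differences. Since all samples form 1 group, no count model was fitted, and p-values cover the spread between these mice. Near-identical copies were sought among annotated transcripts (BLAST 2.17.0, 95% identity over at least 100 bases), and exon overlaps came from the annotation. Python 3.11.15, numpy 2.4.6, pandas 2.3.3 and scipy 1.17.1 were used, with edgeR 4.0.16 (TMM factors) and DESeq2 1.42.0 (size factors) for alternative scalings. The code was tested on simulated data.

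All 7 genes are described. Of each pathway list the 2 highest and the 1 lowest genes by median are named, receptor relatives and processing genes are all named, and the 3 genes nearest in pattern are given for each receptor kinase. Marker genes and sort antigens serve as checks. A few genes of these lists are not reported here and enter no count or sum. The members and lists were chosen with earlier results of these data known. The alternatives were other lengths or none, other denominators and scalings, another pseudocount, filters and cutoffs, and leaving out each mouse. Lengths from coding exons only were added after seeing the data.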

Additional observations from a re-analysis of the deposited data

Results flagged for a closer look

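Over the 4 mice, 29 values were examined for a mouse that stood apart by Dixon's criterion, which divides the gap between an extreme value and the next by the range and compares it with a 95% critical value. It marked 4 of them, where about 1 in 20 groups, or 1.45 of 29, are marked by chance. The summed TPM of the 4 ligand genes was lowest in mouse 2 (gap 0.858), with 139.7 TPM there and 164.2 to 168.2 TPM elsewhere, and Pdgfd was also at its lowest in mouse 2, at 42.0 TPM. Pdgfb was highest in mouse 4 (gap 0.902), which rests on 6 counts. The megakaryocyte and platelet markers were highest in mouse 1, at 7.95 TPM (gap 0.914). Nearly all of that came from the 122 counts of Gp9, and Pdgfb had 1 count in this mouse. The macrophage markers were highest in mouse 3, at 16.0 TPM (gap 0.969), which came from C1qb, with 176 counts there and 0 in the other mice, and Cd68, with 144 counts there and at most 11 elsewhere. The other markers of the list, C1qa, Adgre1 and Csf1r, were at 0 counts throughout.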

How the results depend on the processing

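The number of PDGF genes above the cutoff was 6 under all 15 alternatives. Of the 5 differences in log2(TPM + 1), Pdgfa minus Pdgfc and Pdgfa plus Pdgfc minus Pdgfb plus Pdgfd kept their direction under all 13 alternatives. Without a length correction, Pdgfra minus Pdgfrl turned to 0.74 and the receptor kinases minus the 4 ligands to 0.21, since long genes then gain counts, and Pdgfra minus Pdgfrb was 1.14. Pdgfra minus Pdgfrb lay between -0.28 and 0.71 when each mouse was left out in turn, turning to -0.28 without mouse 1 and -0.09 without mouse 4. All other differences kept their direction when a mouse was left out, and lay between -1.06 and -0.78 for Pdgfra minus Pdgfrl, 0.42 and 0.85 for the ligand pairs, and -1.35 and -0.73 for receptors minus ligands. With 4 mice the exact test cannot reach a p of 0.05 under any setting. Mean levels moved by more than 1 SD in 3 of 76 recomputed values, Pdgfa at 88.0 TPM with the longest transcript and 138 TPM with coding exons, and Pdgfc at 38.7 TPM with coding exons. A filter on genes under 10 counts in total removes Pdgfb. No paired analysis was possible because all libraries belong to 1 group, with no other to pair it with. The differences between genes were themselves taken within each mouse. The deepest library had 43545349 counts, and in each mouse 3 counts correspond to less than 0.1 TPM for every PDGF gene.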
